A study of Mus musculus with 17 samples.

Results

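The colony-stimulating factors and their receptors were followed as a family of 8 genes in macrophages exposed to the HIV protein Tat: the ligands Csf1, Csf2 and Csf3 and the receptor chains Csf1r, Csf2ra, Csf2rb, Csf2rb2 and Csf3r. The members were chosen by name, all 8 were found among the 21683 rows of the table, and all 8 passed the filter on low values. The 17 RNA-Seq libraries came from thioglycollate-elicited peritoneal macrophages (PMs) of 8-week-old mice on a C57BL/6 background, and the study asked how Tat changes the PM transcriptome and what part of that change needs IKKβ, the kinase that activates NF-κB. Every mouse carried floxed IKKβ alleles (IKKβF/F), on a genetic background shared by all groups. PMs of IKKβF/F mice were given PBS (F/F PBS, n = 6 libraries) or 100 nM Tat (F/F Tat, n = 6), and PMs of IKKβΔMye mice were given 100 nM Tat (ΔMye Tat, n = 5), in each case for 12 h after 4 h of attachment. IKKβΔMye mice also carried 1 copy of a Cre recombinase knocked into the lysozyme gene Lyz2 (LysM-Cre), which is active in macrophages, neutrophils and other myeloid cells. Tat was the form encoded by the first exon, made as a recombinant protein in Escherichia coli. The study removed endotoxin from the protein and reports its level as below the detection limit. The methods give 4 days between thioglycollate and isolation, and the labels give 3. A PBS arm of ΔMye PMs is not analysed here, so what sets ΔMye Tat apart from F/F Tat may have been there before Tat was added.

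Colony-stimulating factors are secreted proteins that keep myeloid cells alive and drive their growth and maturation. Csf1 (M-CSF) binds Csf1r, a receptor tyrosine kinase on which most tissue macrophages depend. Csf2 (GM-CSF) binds its own alpha chain, Csf2ra, together with a common beta chain, Csf2rb, which signals through JAK2 and STAT5 and is also used by IL-3 and IL-5. Mice have a second beta chain, Csf2rb2, that serves IL-3 alone. Csf3 (G-CSF) binds Csf3r, best known from neutrophils. Macrophages under inflammatory stimulation are a source of all of the ligands, and NF-κB is among the factors known to act on the Csf2 and Csf3 promoters.

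The values are TPM, a share of a library's transcripts scaled for transcript length, and can be compared between genes within a library. They hold no read counts, so the depth and the counting error of a value are unknown and the spread between libraries is the only error given. The listed genes summed to between 889318 and 903576 TPM per library. Ikbkb, the gene that encodes IKKβ, was 26.8 ± 1.99 TPM (SD, n = 6) in F/F PBS, 23.2 ± 1.44 (n = 6) in F/F Tat and 16.4 ± 2.59 (n = 5) in ΔMye Tat, and the ΔMye Tat libraries did not overlap the others. Since Cre removes part of the gene, its total TPM checks the deletion only weakly. The study reports lower IKKβ mRNA (QPCR) and protein (immunoblotting) in PMs of IKKβΔMye mice. The macrophage markers Adgre1 and Cd68 were at 441 to 512 and 1744 to 2596 TPM in the group means. The listed neutrophil markers other than Csf3r summed to 57.5 to 68.7 TPM in F/F PBS. These sums were 66.9 to 77.9 TPM in F/F Tat and 87.8 to 106 TPM in ΔMye Tat, mostly from S100a8. Of these markers, Elane was listed at 0 in every library. The T cell marker Cd3e did not pass 1.79 TPM in any group mean. In bulk RNA, fewer cells of a type and less RNA per cell cannot be told apart. The typical tested gene was lower with Tat, with a median log2 fold change of -0.65 over 10451 genes, and higher in ΔMye Tat than in F/F Tat, with a median of 0.22. Fold changes are therefore also given after median-ratio scaling, which divides a library by the median ratio of its genes to their geometric means over all libraries. The scaling factors were 1.25 to 1.34 in F/F PBS, 0.796 to 0.845 in F/F Tat and 0.900 to 1.00 in ΔMye Tat, and they brought these medians to -0.03 and 0.01.

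In untreated PMs the family was a set of receptors with little ligand. Csf1r stood highest at 381 ± 32.3 TPM, followed by Csf2ra (309 ± 18.1), Csf2rb (181 ± 12.1), Csf2rb2 (96.5 ± 6.95) and Csf3r (54.9 ± 3.49). Csf1 was the ligand with the highest level, at 27.5 ± 1.71 TPM, while Csf3 and Csf2 were at 1.56 ± 0.243 and 0.746 ± 0.173 TPM. The 8 genes had the same order in all 6 F/F PBS libraries, and no neighbours in that order overlapped. With Tat, Csf3 was the highest of the 8 genes in F/F PMs and Csf1r and Csf1 were the lowest. In that group Csf2ra overlapped Csf2rb, Csf2 overlapped Csf2rb2, Csf2rb2 overlapped Csf3r, and Csf1r overlapped Csf1. In ΔMye Tat the highest gene was Csf2rb, Csf2ra came next without overlap, and Csf3 was again among the lowest, overlapping Csf1.

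**Figure D1:**
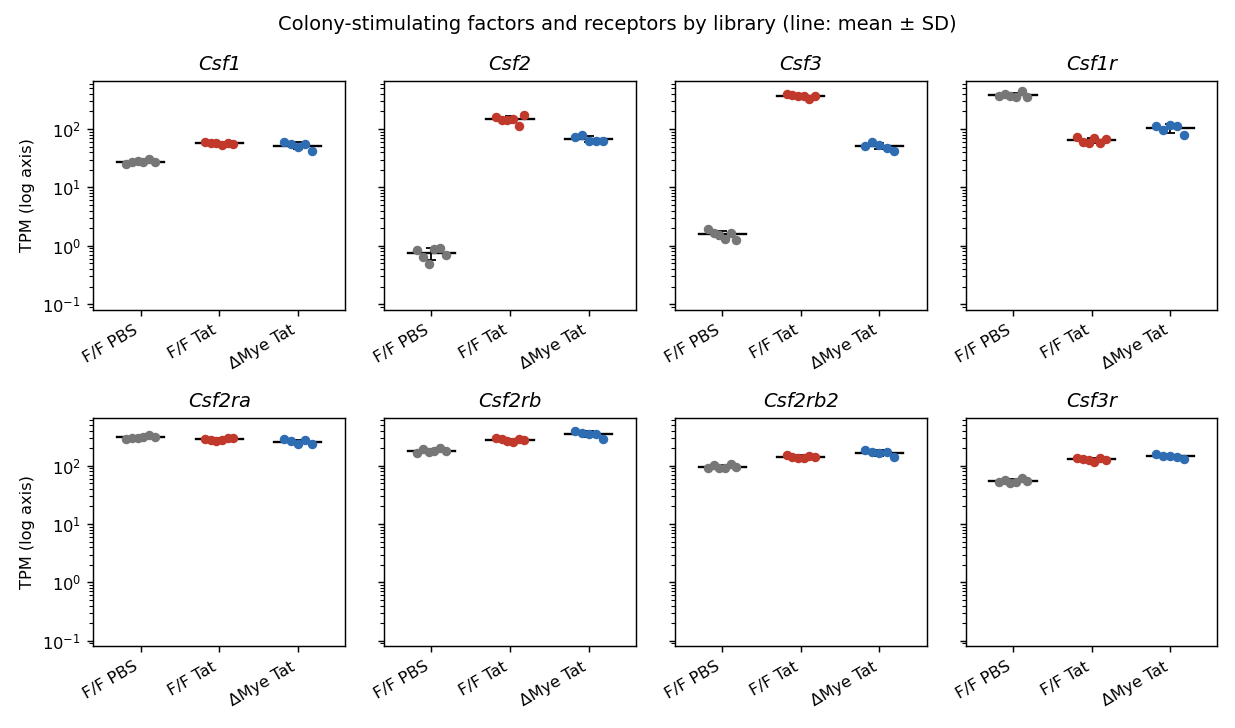
TPM of the 8 members (log axis) in each library of F/F PBS, F/F Tat and ΔMye Tat, with the mean as a line and the SD as a bar. Csf3 and Csf2 rise from about 1 TPM to means of 363 and 147 TPM with Tat and are at 50.9 and 67.5 TPM in ΔMye Tat, Csf1r falls from 381 to 64.0 TPM, and the other receptor chains move within a narrower range.

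Csf3, the ligand that drives the production of neutrophils, showed the largest change of the family. In F/F PBS its lowest, median and highest values were 1.26, 1.61 and 1.91 TPM. In F/F Tat they were 322, 362 and 393 TPM. The ΔMye Tat libraries had 52.0, 59.5, 53.0, 47.4 and 42.7 TPM. The 3 groups were apart from each other, with ΔMye Tat between the others on the log scale and at 14.0% of the F/F Tat mean. Tat raised Csf3 by a log2 fold change of 7.78 (SE 0.09, adjusted p = 2.36e-23, limma; 8.39 after scaling), the sixth largest of the 10451 tested genes. ΔMye Tat was lower than F/F Tat by a log2 fold change of -2.84 (SE 0.09, adjusted p = 1.57e-14, limma; -3.06 after scaling), a 7.16-fold difference, and only 7 tested genes had a lower value in that comparison. Csf3 in ΔMye Tat was still above F/F PBS by 4.94 on the log2 scale (SE 0.09, adjusted p = 1.11e-19, limma; 5.33 after scaling). Where groups did not overlap, here and for the other members, the exact two-sided permutation test gave p = 0.00216, the smallest that these group sizes allow. The labels do not say which animal a library came from, and the study calls the columns of its heat maps replicates from mice. The p-values measure the spread between these libraries.

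Csf2, which drives the survival and activation of macrophages and granulocytes, rose to a like degree but kept more of its level in ΔMye PMs. Its F/F PBS values ran from 0.480 to 0.930 TPM with a median of 0.774. The F/F Tat values ran from 113 to 172 TPM with a median of 147. In ΔMye Tat the libraries had 74.0, 77.9, 62.1, 61.1 and 62.2 TPM. Every Tat library was above every PBS library, and every ΔMye Tat library was below every F/F Tat library. The log2 fold change with Tat was 7.45 (SE 0.13, adjusted p = 8.94e-21, limma; 8.04 after scaling), the ninth largest of all tested genes. The change depends on the pseudocount, since F/F PBS was under 1 TPM, and was 6.40 with a pseudocount of 1 TPM. The mean of ΔMye Tat was 46.0% of that of F/F Tat. The log2 fold change was -1.11 (SE 0.13, adjusted p = 8.15e-07, limma; -1.34 after scaling), a 2.17-fold difference that is under the 3-fold threshold. Above F/F PBS, Csf2 in ΔMye Tat remained higher by 6.34 on the log2 scale (SE 0.13, adjusted p = 4.24e-19, limma; 6.71 after scaling). On the log scale of these fits, the ΔMye Tat difference of Csf3 had an interval of -3.04 to -2.64 and that of Csf2 one of -1.39 to -0.84 (95% confidence).

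Csf1, the ligand that maintains macrophages, rose 2.06-fold with Tat and was close to the F/F Tat level in ΔMye PMs. F/F PBS values were 24.8, 27.5 and 30.1 TPM (lowest, median and highest). F/F Tat values were 52.6, 57.2 and 60.1 TPM. The ΔMye Tat libraries held 59.6, 55.2, 49.1, 54.6 and 41.6 TPM. They lay above all F/F PBS libraries and overlapped F/F Tat. The log2 fold change was 1.04 with Tat (SE 0.07, adjusted p = 2.22e-11, limma; 1.68 after scaling, which passes the 3-fold threshold). ΔMye Tat differed from F/F Tat by -0.13 (95% interval -0.28 to 0.02, adjusted p = 0.122, limma). After scaling that difference was -0.35 with an adjusted p of 3.11e-05 (limma), so whether it passes the adjusted p depends on the scaling. Against F/F PBS, Csf1 in ΔMye Tat had a log2 fold change of 0.91 (adjusted p = 6.13e-10, limma, or 1.32 after scaling).

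Other cells that make these ligands were looked for by their markers. The T cell and innate lymphoid list (8 genes) summed to 149 to 173 TPM in F/F PBS, 144 to 159 TPM in F/F Tat and 153 to 168 TPM in ΔMye Tat, nearly all of it from Il7r at 149 to 152 TPM in the group means. Cd3e was 1.46, 0.724 and 1.79 TPM in the 3 group means. By adjusted p, 4 of the 5 tested genes of that list were higher in ΔMye Tat than in F/F Tat (38.8% of all tested genes were). The mesothelial and fibroblast list (8 genes) summed to 14.9 to 22.4, 10.6 to 13.0 and 5.67 to 9.48 TPM, and the mast cell list (5 genes) to 25.7 to 34.5, 23.2 to 31.2 and 16.3 to 23.4 TPM. The mesothelial and fibroblast sums were lower in ΔMye Tat than in F/F Tat without overlap and the mast cell sums with overlap. As deposited, the sums of both lists had lower medians in F/F PMs given Tat than with PBS. The 4 tested mast cell genes had a median log2 fold change with Tat of -0.02 (0.59 after scaling). For the 4 tested mesothelial and fibroblast genes it was -0.59 (0.01 after scaling), beside -0.65 for all tested genes as deposited. By these medians, neither list fell relative to the typical tested gene. The B cell, NK cell, eosinophil and dendritic cell lists reached at most 25.4, 3.89, 2.41 and 2.11 TPM in any library. The part of such cells in the ligand values was not tested.

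The promoters of the ligands that rose are shown because NF-κB sites are known in genes of this family. RefSeq windows (GRCm38.p6), from 250 bases before to 50 after the start of the gene, were found for 5 of the 8 members: Csf1, Csf2, Csf2ra, Csf2rb2 and Csf3r. None was found for Csf3, Csf2rb and Csf1r. The 250 bases before the RefSeq start of Csf1 (chr3:107760470-107760719, minus strand) and Csf2 (chr11:54249900-54250149, minus strand) are printed 5′ to 3′, with the match to a searched motif in capitals. In Csf1 the capitals mark the κB consensus, read on the opposite strand, at positions -154 to -145 from the start. In Csf2 they mark the C/EBP motif TTGCNNAA at -145 to -138.
Csf1: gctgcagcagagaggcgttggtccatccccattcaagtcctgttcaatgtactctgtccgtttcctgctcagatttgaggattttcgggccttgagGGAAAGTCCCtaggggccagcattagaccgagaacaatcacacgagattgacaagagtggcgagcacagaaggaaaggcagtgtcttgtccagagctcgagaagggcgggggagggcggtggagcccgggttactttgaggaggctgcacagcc
Csf2: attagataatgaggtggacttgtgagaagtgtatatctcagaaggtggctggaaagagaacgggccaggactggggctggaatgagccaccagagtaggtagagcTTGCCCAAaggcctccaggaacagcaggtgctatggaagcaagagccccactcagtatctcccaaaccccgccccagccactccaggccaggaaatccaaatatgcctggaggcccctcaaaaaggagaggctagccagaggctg

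Of all 32851 RefSeq windows, 4.51% held the κB consensus and 10.8% held TTGCNNAA on either strand. The CK-1 motif GAGATTCC (0.904% of windows) and the AP-1 motif TGANTCA (7.81%) were not found in the 5 windows. The PU.1 motif GAGGAA, found in 28.3% of windows, occurred 2 times in Csf2ra, 2 times in Csf2rb2 and 1 time in Csf3r. A match is a match of letters and not a bound site. The RefSeq start of Csf2 lies 232 bases upstream of the start in the GENCODE annotation, so the Csf2 window does not hold the bases directly before the GENCODE start. In that annotation (GRCm38) Csf1 lies at chr3:107741048-107760469 on the minus strand, Csf2 at chr11:54247271-54249667 on the minus strand, Csf3 at chr11:98701263-98703629 on the plus strand and Csf2ra at chr19:61223957-61228429 on the minus strand. Csf1 and Csf3 share none of their 31-base sequences with other genes (0%) and Csf2ra shares 0.443%. Csf2 shares 9.22%, most of it with Gm12223, an antisense gene that has no row in the table, and whether the reads were counted by strand is not given in the sources used here.

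Csf1r, the receptor through which Csf1 acts, was the member that fell with Tat. Its F/F PBS values were 351, 372 and 440 TPM (lowest, median and highest). In F/F Tat they were 57.2, 63.3 and 73.3 TPM. The ΔMye Tat libraries had 113, 96.1, 117, 114 and 77.5 TPM. The 3 groups did not overlap, with ΔMye Tat between the others at 162% of the F/F Tat mean. Tat lowered Csf1r by a log2 fold change of -2.57 (SE 0.09, adjusted p = 9.64e-16, limma; -1.94 after scaling), a 5.95-fold difference. ΔMye Tat was higher than F/F Tat by 0.68 (SE 0.09, adjusted p = 5.58e-06, limma; 0.46 with adjusted p = 1.24e-04 after scaling) and lower than F/F PBS by a log2 fold change of -1.89 (SE 0.09, adjusted p = 5.10e-13, limma; -1.48 after scaling, under the 3-fold threshold).

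The other 8 macrophage markers summed to 25400 to 26481 TPM in F/F PBS, 10258 to 10849 in F/F Tat and 7924 to 8280 in ΔMye Tat. Most of that sum was Lyz2, the gene that carries the Cre, at 22382, 6993 and 4333 TPM in the group means. Adgre1, which encodes F4/80, was 499 ± 24.2, 441 ± 9.57 and 512 ± 32.1 TPM, and Cd68 was 2596, 1744 and 1886 TPM. By adjusted p, 3 of the 9 listed markers were higher and 6 lower with Tat, Csf1r included (17% and 67.6% of all tested genes). After scaling 4 were higher and 3 lower (37.3% and 38.0% of all tested genes). Itgam was 178, 106 and 116 TPM, Cd14 203, 842 and 1009, Fcgr1 113, 300 and 164, and Mertk 15.4, 20.1 and 24.3 TPM in the group means, while Mrc1 fell from 42.8 TPM in F/F PBS and was 16.8 TPM in ΔMye Tat. The part of the macrophage share in the Csf1r values was not tested. Csf1r lies on chromosome 18 (61100598 to 61132149, plus strand, GRCm38) and overlaps Hmgxb3 on the opposite strand, with which it shares 14.6% of its 31-base sequences. Hmgxb3 was 8.07, 9.06 and 9.49 TPM in the group means, far under Csf1r in every group.

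Csf3r, the receptor of Csf3, rose with its ligand. F/F PBS values were 51.2, 54.0 and 61.0 TPM (lowest, median and highest). F/F Tat values were 117, 128 and 135 TPM. Values in ΔMye Tat were 159, 144, 148, 144 and 130 TPM. Every Tat library was above every PBS library, and the 2 Tat groups overlapped. The log2 fold change with Tat was 1.22 (SE 0.05, adjusted p = 1.28e-14, limma), a 2.33-fold rise, and 1.85 after scaling, past the 3-fold threshold. ΔMye Tat was higher than F/F Tat by 0.18 (SE 0.05, adjusted p = 0.00700, limma), which is less than the shift of the median gene, and the difference was -0.043 (adjusted p = 0.346, limma) after scaling. The adjusted p also rose above 0.01 when any of F/F Tat library 8, 9, 10 or 12 or ΔMye Tat library 19, 20, 21 or 22 was left out, to between 0.0103 and 0.0264 (limma) in those fits. Against F/F PBS, Csf3r in ΔMye Tat had a log2 fold change of 1.40 (adjusted p = 5.63e-15, limma; 1.81 after scaling, past the 3-fold threshold).

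The other 8 neutrophil markers had sums of 57.5 to 68.7 TPM in F/F PBS, 66.9 to 77.9 in F/F Tat and 87.8 to 106 in ΔMye Tat. S100a8, an alarmin also made by stimulated macrophages, made up most of these sums at 53.8, 68.6 and 91.4 TPM in the group means. Elane was listed at 0 in every library, Mpo at 0 in every F/F PBS library and at a mean of 0.0172 TPM in ΔMye Tat, and Ly6g at means of 0.0338, 0.274 and 0.351 TPM. Retnlg went the other way, at 5.07, 0.671 and 0.298 TPM. S100a9 was 1.15, 0.842 and 0.716 TPM, Cxcr2 was 0.359, 0.260 and 0.367 TPM and Camp was 1.64, 1.86 and 2.31 TPM. The level of Csf3r was above 50 TPM in each library. The part of neutrophils in the Csf3r values was not tested. Csf3r (chromosome 4, 126024550 to 126044440, plus strand, GRCm38) shares 19.9% of its 31-base sequences with AC105061.2, a gene without a row in the table.

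Csf2ra, the chain that makes the receptor specific for Csf2, differed least with Tat among the members as deposited. F/F PBS values were 286, 306 and 341 TPM (lowest, median and highest). F/F Tat values were 269, 284 and 304 TPM. In ΔMye Tat the values were 282, 263, 238, 277 and 237 TPM. Neighbouring groups overlapped in both comparisons. The difference with Tat was -0.11 on the log2 scale (95% interval -0.21 to -0.01, adjusted p = 0.0388, limma), which did not pass, and its sign turned with scaling, to 0.53 (adjusted p = 3.45e-10, limma). ΔMye Tat against F/F Tat gave -0.14 (95% interval -0.25 to -0.04, adjusted p = 0.0187, limma), -0.18 with adjusted p = 0.00671 when ΔMye Tat library 19 was left out, and -0.37 with adjusted p = 7.33e-07 after scaling. Against F/F PBS, ΔMye Tat was at -0.25 (adjusted p = 1.25e-04, limma), and at 0.16 after scaling. Relative to the typical gene of its library, by median-ratio scaling, Csf2ra thus rose with Tat. As a share of all listed transcripts it did not pass the test. After quantile normalization its difference with Tat was -0.34 and passed, so the direction depends on the processing.

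The beta chain genes rose with Tat. Csf2rb, shared by the receptors of GM-CSF, IL-3 and IL-5, had F/F PBS values of 167, 178 and 198 TPM (lowest, median and highest). In F/F Tat the values were 255, 278 and 293 TPM. The ΔMye Tat values were 393, 362, 347, 354 and 287 TPM. All Tat libraries were above all PBS libraries, and of the ΔMye Tat libraries only library 23 fell within the F/F Tat range. The log2 fold change with Tat was 0.61 (SE 0.06, adjusted p = 1.14e-08, limma; 1.24 after scaling). ΔMye Tat was higher than F/F Tat by 0.33 (SE 0.06, adjusted p = 1.82e-04, limma), and by 0.11 (adjusted p = 0.0458) after scaling, which does not pass. Against F/F PBS the difference was 0.94 (adjusted p = 5.09e-11, limma; 1.35 after scaling).

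Csf2rb2, the beta chain that serves IL-3 alone, had values of 89.9, 93.6 and 108 TPM (lowest, median and highest) in F/F PBS. With Tat the F/F values were 133, 142 and 152 TPM. Libraries of ΔMye Tat had 188, 169, 168, 169 and 139 TPM. Again the Tat groups overlapped only through ΔMye Tat library 23. The log2 fold change with Tat was 0.56 (SE 0.06, adjusted p = 4.42e-08, limma; 1.19 after scaling). The difference of ΔMye Tat from F/F Tat was 0.22 (SE 0.06, adjusted p = 0.00566, limma), equal to the shift of the median gene, and 0.00 (95% interval -0.09 to 0.09) after scaling. The adjusted p did not pass without F/F Tat library 9 or 10 or ΔMye Tat library 19, 20, 21 or 22, at 0.0132 to 0.0220 (limma). Against F/F PBS the difference was 0.78 (adjusted p = 9.75e-10, limma), and 1.20 after scaling.

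The beta chain genes are near-copies and lie side by side, Csf2rb at chr15:78325752-78353847 on the plus strand and Csf2rb2 at chr15:78282507-78305721 on the minus strand (GRCm38). Over 2628 aligned coding bases of the GENCODE transcripts, 2503 were identical (95.2%) and 125 differed. Of the 31-base sequences of all their transcripts, 18.8% of those of Csf2rb also occurred in Csf2rb2 and 28.6% of those of Csf2rb2 in Csf2rb. The split of reads between the pair is therefore uncertain, and their levels are best read together. The first 120 coding bases of each, from the start codon, show how close they are, with the 4 differing bases in capitals.
Csf2rb: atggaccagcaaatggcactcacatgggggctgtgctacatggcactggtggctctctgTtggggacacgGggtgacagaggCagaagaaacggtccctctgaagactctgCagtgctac
Csf2rb2: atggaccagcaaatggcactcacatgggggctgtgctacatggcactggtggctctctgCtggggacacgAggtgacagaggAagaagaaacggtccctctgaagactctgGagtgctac

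Counted over the family, 6 of 8 members were higher with Tat by adjusted p under 0.01 and 1 was lower, beside 17% of all tested genes higher and 67.6% lower. With the further condition of a fold over 3, Csf2 and Csf3 were called higher (background 5.21%) and Csf1r lower (background 19.4%). After scaling, 7 members were higher by adjusted p (background 37.3%) and 1 lower (background 38.0%), and 4 were called higher (background 8.51%), Csf1 and Csf3r being added. The PBS and Tat groups of F/F PMs did not overlap for 7 of the 8 members, all but Csf2ra, and for 77.6% of tested genes, so that lack of overlap sets the family little apart.

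Between ΔMye Tat and F/F Tat, 4 members were higher by adjusted p (Csf1r, Csf2rb, Csf2rb2 and Csf3r, background 38.8%) and 2 were lower (Csf2 and Csf3, background 8.87%). None was called higher (background 0.44%) and 1, Csf3, was called lower (background 0.316%). After scaling, 1 member was higher by adjusted p (Csf1r, background 15.9%) and 4 were lower (Csf1, Csf2, Csf3 and Csf2ra, background 19.4%). The groups did not overlap for Csf2, Csf3 and Csf1r, beside 36.6% of tested genes. The F/F Tat libraries enter both comparisons, so the 2 sets of fold changes are not independent of each other. Against F/F PBS, ΔMye Tat had Csf2 and Csf3 called higher (background 4.38%) and Csf1r called lower (background 11.1%). After scaling, Csf3r was also called higher and Csf1r was no longer called lower. Of 10451 tested genes, 668 were then called higher and 658 lower.

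**Figure D2:**
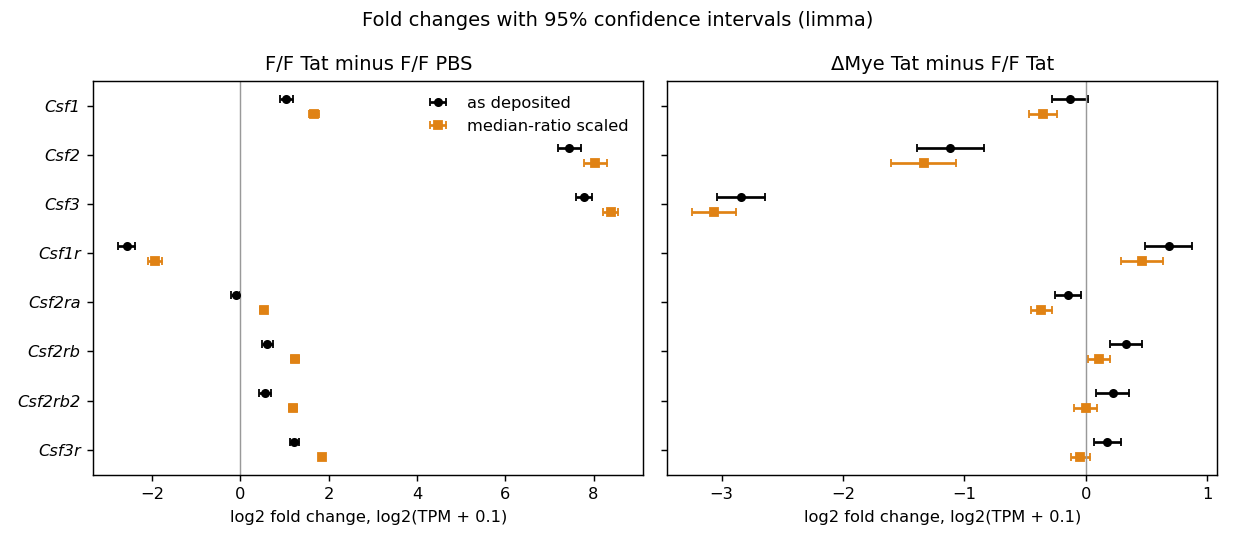
Log2 fold changes of the 8 members with 95% confidence intervals from limma, for Tat against PBS in F/F PMs (left) and ΔMye Tat against F/F Tat (right), as deposited (circles) and after median-ratio scaling (squares). Csf2 and Csf3 stand apart at 7.45 and 7.78 with Tat, Csf1r is at -2.57, and scaling lowers every ΔMye Tat value, so that Csf1r stays above 0 at 0.46, Csf2rb2 lies at 0 and Csf2ra moves away from 0 to -0.37.

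Ratios of members within a library do not depend on the scaling between libraries, and they are given as a description without a test. Csf1 over Csf1r had group medians of 0.0723 with PBS, and of 0.889 (F/F) and 0.526 (ΔMye) with Tat. Csf2 over Csf2ra had medians of 0.00247, 0.533 and 0.262, and Csf3 over Csf3r had medians of 0.0286, 2.90 and 0.330. For each of these ligand to receptor ratios the 3 groups had separate ranges, and Csf3 in F/F Tat was the case in which a ligand stood above its receptor in every library (2.38 to 3.08). In F/F PBS and ΔMye Tat each of the ligands was below its receptor in every library.

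The makeup of the GM-CSF receptor transcripts also shifted. Csf2rb over Csf2ra was 0.570 to 0.640 in F/F PBS, 0.914 to 1.02 in F/F Tat and 1.21 to 1.46 in ΔMye Tat, again without overlap. Going by Csf2rb alone, the alpha chain transcript was the more abundant in untreated PMs, and Csf2ra and Csf2rb were near equal in F/F Tat. In ΔMye Tat Csf2rb was the more abundant. The uncertain split of reads between Csf2rb and Csf2rb2 limits this reading. Csf2rb2 over Csf2rb moved little, at 0.520 to 0.552, 0.501 to 0.529 and 0.468 to 0.484. The F/F groups overlapped in that ratio and ΔMye Tat lay below both, with the shared sequence of the pair as a limit.

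**Figure D3:**
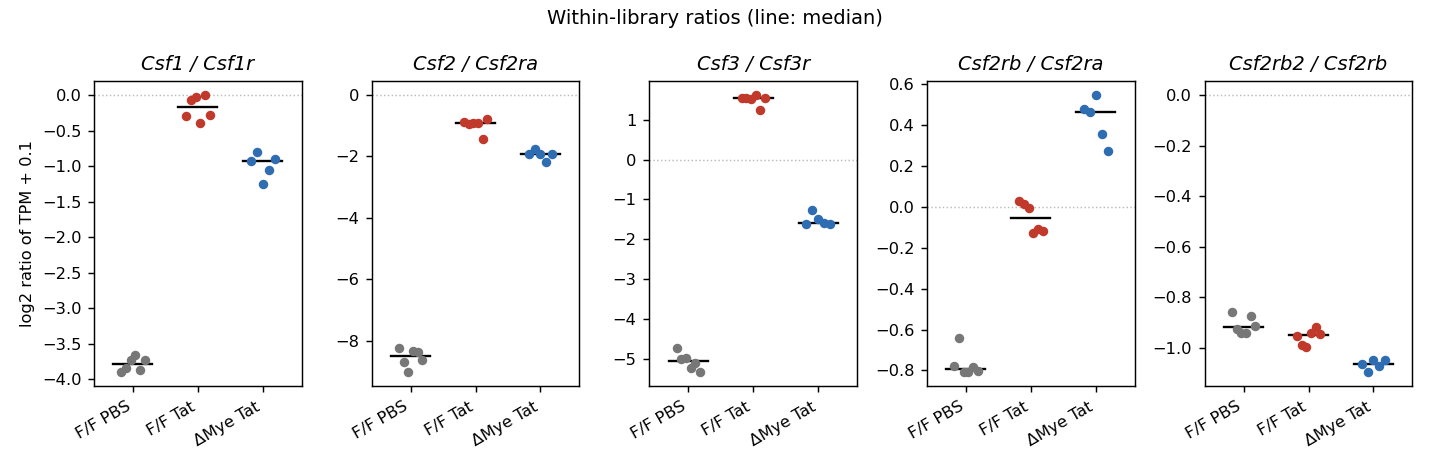
Log2 ratios of TPM + 0.1 within each library for Csf1 to Csf1r, Csf2 to Csf2ra, Csf3 to Csf3r, Csf2rb to Csf2ra and Csf2rb2 to Csf2rb, with the group median as a line and equal levels as a dotted line. The groups are apart in the first 4 ratios, Csf3 to Csf3r is above equality only in F/F Tat, and Csf2rb to Csf2ra steps up from F/F PBS to F/F Tat to ΔMye Tat.

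Some libraries held the extreme value of many members. In F/F PBS, library 5 had the highest value of 7 of the 8 members, where it was the highest for 30.2% of all tested genes. In F/F Tat, library 7 was the highest for 5 members (27.8% of all tested genes) and library 10 the lowest for 4 (30.4%). In ΔMye Tat, library 23 had the lowest value of 7 of 8 (43.7%) and library 19 the highest of 5 (38.4%). After scaling, library 23 was the lowest for 6 of 8 and library 5 the highest for 6 of 8, beside 28.5% and 18.5% of all tested genes. The spread of the receptors in ΔMye Tat was wider than in F/F Tat before scaling, with a coefficient of variation of 11.1% against 4.85% for Csf2rb and 7.12% against 5.50% for Csf3r. After scaling these were 7.36% against 3.13% for Csf2rb and 3.69% against 3.95% for Csf3r. Csf2 had the widest relative spread of the family in both F/F groups, 23.2% in PBS and 13.4% with Tat, and Csf1r had it in ΔMye Tat (16.1%).

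Other ligands and receptors of the family took little part. Il3 was listed at 0 in all 17 libraries, and Il34 (the second ligand of Csf1r), Il5, Il5ra and Flt3 did not pass the filter. Il3ra, the IL-3 alpha chain that pairs with Csf2rb and Csf2rb2, was 133 ± 7.08 TPM with PBS, and with Tat it was 124 ± 5.97 TPM in F/F PMs and 104 ± 7.64 TPM in ΔMye PMs. It did not pass the test with Tat (-0.11, adjusted p = 0.0395, limma; 0.53 with adjusted p = 9.89e-10 after scaling), close to the values of Csf2ra. Il3ra was lower in ΔMye Tat than in F/F Tat by a log2 fold change of -0.25 (adjusted p = 2.92e-04, limma; -0.47 after scaling). Csf2ra was at -0.14 there and did not pass (adjusted p = 0.0187, limma; -0.37 with adjusted p = 7.33e-07 after scaling). Kit, the receptor of stem cell factor, was 1.32, 2.18 and 1.43 TPM in the group means, higher with Tat by 0.69 (adjusted p = 3.90e-04, limma, or 1.28 after scaling) and lower in ΔMye Tat by a log2 fold change of -0.59 (adjusted p = 0.00434, or -0.80 after scaling). Its ligand Kitl and Flt3l, the ligand of Flt3, were lower with Tat at log2 fold changes of -0.50 and -0.64 (adjusted p = 0.00414 and 0.00124, limma), and after scaling they were at 0.11 and -0.01 and did not pass.

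Genes that carry the signal below the receptors changed in both directions. Of 22 such genes, all tested, 7 were higher and 9 lower with Tat by adjusted p (17% and 67.6% of all tested genes), with a median log2 fold change of 0.02 beside -0.65 for all tested genes. After scaling 15 were higher and 7 lower (37.3% and 38.0% of all tested genes). Src, a kinase recruited to activated Csf1r, went from 3.19 ± 0.326 to 32.7 ± 1.22 TPM (log2 fold change 3.32, adjusted p = 6.83e-19, limma, or 3.95 after scaling) and was 52.8 ± 6.00 TPM in ΔMye Tat. Jak2, the kinase bound to the beta chain, went from 36.3 ± 1.99 to 179 ± 7.87 TPM (2.30, adjusted p = 3.95e-18, or 2.93 after scaling) and was 187 ± 20.4 in ΔMye Tat. Among the genes that fell, Inpp5d, which encodes the phosphatase SHIP1, went from 40.9 ± 1.42 to 6.47 ± 0.757 TPM (-2.65, adjusted p = 4.33e-17, limma, or -2.02 after scaling), and the kinase gene Fes from 63.6 ± 4.15 to 13.5 ± 1.06 TPM (-2.23, adjusted p = 1.81e-15, or -1.60 after scaling). Between ΔMye Tat and F/F Tat, 11 of the 22 were higher and 1 lower by adjusted p (38.8% and 8.87% of all tested genes), and 10 and 6 after scaling (15.9% and 19.4%). Of the named genes, Src, Inpp5d and Fes were higher in ΔMye Tat by 0.68, 0.69 and 0.72 (adjusted p = 5.10e-07, 6.58e-07 and 8.42e-07, limma), or by 0.46, 0.47 and 0.50 after scaling, while Jak2 was at 0.06 (adjusted p = 0.400; -0.16 with adjusted p = 0.00386 after scaling).

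Feedback and STAT5-responsive genes were mostly higher with Tat. Of 12 tested, 9 were higher and 1 lower by adjusted p (17% and 67.6% of all tested genes), and the median log2 fold change was 2.73, beside -0.65 for all tested genes. Cish, a feedback inhibitor induced through STAT5, rose from 2.47 ± 0.713 to 66.5 ± 1.15 TPM (4.74, adjusted p = 2.96e-17, limma, or 5.36 after scaling) and was 58.7 ± 4.33 TPM in ΔMye Tat. The chemokine genes Ccl22 and Ccl17, which macrophages express in response to GM-CSF, rose from 5.80 to 121 TPM (4.39, adjusted p = 7.82e-18, or 5.02 after scaling) and from 0.334 to 10.5 TPM (4.76, adjusted p = 1.48e-10, limma, or 5.26 after scaling), with ΔMye Tat means of 170 and 22.1 TPM. Pparg, a nuclear receptor that GM-CSF is known to induce in alveolar macrophages, was the gene that fell, from 26.0 ± 1.42 to 0.947 ± 0.407 TPM (-4.76, adjusted p = 2.10e-13, limma, or -4.16 after scaling), and it was 3.93 ± 0.572 in ΔMye Tat. Between ΔMye Tat and F/F Tat, 3 of the 12 were higher and 1 lower by adjusted p (38.8% and 8.87% of all tested genes), with a median of 0.01. Scaling changed these to 1 and 6 (15.9% and 19.4%), with a median of -0.21. Cish was at -0.18 in that comparison (adjusted p = 0.268, limma; -0.40 with adjusted p = 0.0239 after scaling), where Csf2 was lower, and Ccl22 was higher by 0.49 (adjusted p = 0.00173; 0.27 with adjusted p = 0.0811 after scaling).

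The transcription factors known to act on Csf1r and other myeloid receptor genes were split. Of 9 tested, 3 were higher and 4 lower with Tat by adjusted p (17% and 67.6% of all tested genes), with a median log2 fold change of -0.23. After scaling 6 were higher and 3 lower (37.3% and 38.0% of all tested genes). Cebpa, which drives myeloid commitment, fell from 174 ± 10.7 to 7.77 ± 0.603 TPM (-4.47, adjusted p = 2.66e-23, limma, or -3.84 after scaling) and was 19.2 ± 0.623 in ΔMye Tat. Cebpd went from 18.1 ± 1.15 to 6.11 ± 0.287 TPM (-1.55, adjusted p = 1.87e-15, or -0.92 after scaling), with 12.9 ± 0.735 in ΔMye Tat, and Ets2 from 44.1 ± 1.56 up to 109 ± 3.89 TPM (1.31, adjusted p = 6.79e-15, limma, or 1.94 after scaling), with 98.9 ± 10.1 in ΔMye Tat. In ΔMye Tat against F/F Tat, 6 of the 9 were higher and none lower by adjusted p (38.8% and 8.87% of all tested genes), and 5 and 2 after scaling (15.9% and 19.4%). Cebpa and Cebpd were higher there by 1.29 and 1.07 in log2 units (adjusted p = 5.05e-13 and 2.51e-11, limma, or 1.08 and 0.85 after scaling). Cebpa, Cebpd and Ets2 thus had ΔMye Tat means between those of the F/F groups. So did Csf1r and genes of other lists, such as Fes, Inpp5d, Adam10 and Pparg. A link between the factors and Csf1r was not tested.

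The protease Adam17 releases Csf1r and Csf1 from the cell surface, and the list of receptor shedding holds it with the related protease Adam10, its inhibitor Timp3 and its partner Rhbdf2. Of these 4 genes, 1 was higher and 3 were lower with Tat by adjusted p, beside 17% and 67.6% of all tested genes, and the counts were 1 and 3 also after scaling. Adam17 went from a mean of 114 to one of 59.3 TPM (-0.94, adjusted p = 1.05e-12, limma, or -0.31 after scaling) and was 110 TPM in ΔMye Tat, higher than F/F Tat by 0.89 (adjusted p = 8.90e-11, or 0.66 after scaling). Adam10 went from 65.7 ± 4.90 to 17.4 ± 0.953 TPM (-1.91, adjusted p = 1.97e-16, limma, or -1.28 after scaling) and was 26.8 ± 2.37 in ΔMye Tat. Timp3 was low throughout, at 1.85, 0.713 and 0.517 TPM. Rhbdf2, which helps Adam17 to mature, went the other way, from 43.5 ± 4.03 to 114 ± 4.73 TPM (1.39, adjusted p = 6.62e-13, limma, or 2.03 after scaling), and was 105 ± 13.9 in ΔMye Tat.

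**Figure D4:**
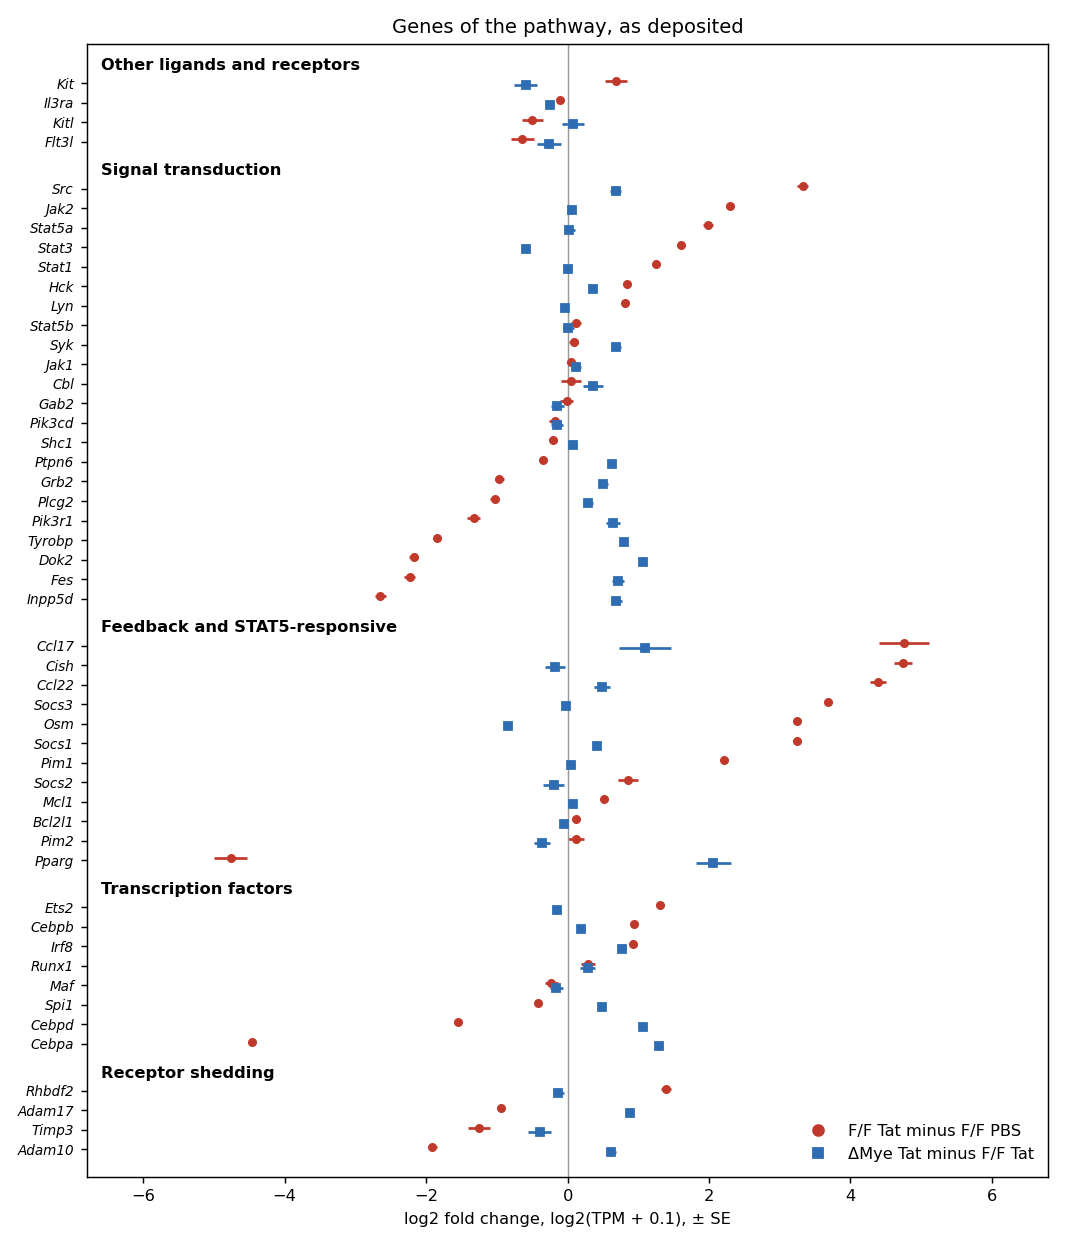
Log2 fold changes (± SE, as deposited) of the tested and reported genes of the 5 pathway lists, for Tat against PBS in F/F PMs (circles) and ΔMye Tat against F/F Tat (squares). Feedback genes such as Cish (4.74) lie to the right with Tat while Pparg (-4.76) and Cebpa (-4.47) lie far to the left. In ΔMye Tat these 3 genes are at -0.18, 2.06 and 1.29.

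For each member, the 3 tested genes with the most similar profile over the 17 libraries were taken by Pearson's r of log2(TPM + 0.1). Most of such an r reflects the 3 group levels, and the libraries share their scaling. They were Enpp4, Ier3 and Cmpk2 for Csf3 (r of 0.998 to 0.999), Ccrl2 and Ptges among those for Csf2 (0.998) and Rhbdf2, Ube2z and Helz2 for Csf1 (0.993 to 0.995). For the receptors they were Ttyh2, Fech and Jun for Csf1r (0.996), Malt1, Inpp5b and Kcna3 for Csf3r (0.995 to 0.997), Cpd, Actn1 and Clcn7 for Csf2rb (0.994 to 0.997), Cpd, Acvr1b and Hivep3 for Csf2rb2 (0.991 to 0.995) and Wwp2, Sec61a1 and Cox15 for Csf2ra (0.904 to 0.942). Cpd was thus the nearest gene to both beta chain genes. Rhbdf2, with 43.5, 114 and 105 TPM in the group means, had the profile nearest to that of Csf1 and is also on the shedding list. After scaling, 2 of the 3 genes remained for Csf1 and Csf1r, 1 for Csf2, Csf3, Csf2ra and Csf2rb, and 0 for Csf2rb2 and Csf3r, so these neighbours depend on the scale.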

How the data were processed

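RNA-Seq was analysed in 17 libraries of PMs, grouped by the sample labels. The deposited values are TPM, which the authors made with Salmon and the Ensembl transcripts of GRCm38 (mm10 in the labels). The Salmon version is not given in the sources used here, and no normalization between libraries is stated for the TPM. The authors' own comparison used edgeR on counts normalized by TMM, which are not analysed here. The 8 members and all lists were chosen with earlier results of these data known.

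Of 21683 rows, 10451 reached 1 TPM in 5 or more libraries and were tested as log2(TPM + 0.1). The test was limma (version 3.58.1, under R 4.3.3), with lmFit and contrasts.fit followed by eBayes with a mean-variance trend and the 3 groups in 1 fit (14 residual degrees of freedom) and Benjamini-Hochberg adjustment over all tested genes. Fold changes are on that scale, which understates changes of low genes. A call needed a fold over 3 beside an adjusted p below 0.01, and "by adjusted p" means that p alone. Each adjusted p printed is from limma. The script was tested on simulated data. As alternatives, the values were scaled by median ratios or normalized by quantiles, the pseudocount was set to 0.5 or 1, the filter was dropped or raised to 5 TPM, eBayes was made robust with array weights, the fit was limited to the compared groups, the fold threshold was dropped, and each library was left out in turn. All 8 members were named, with every gene of the list of other ligands and receptors, the 4 tested genes of each further list with the largest absolute change with Tat, Ikbkb, and the 3 genes nearest to each member. Markers were named where a sum or count turned on them. A few genes that these rules pick are not reported here. Coordinates and 31-base sequences came from GENCODE M21 (GRCm38) and promoters from RefSeq (GRCm38.p6). No protein sequence was used. The tools were Biopython 1.88, matplotlib 3.10.9, numpy 2.4.6 and pandas 2.3.3 under Python 3.11.15.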

Additional observations from a re-analysis of the deposited data

How the results depend on the processing

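Of 600 member values under the alternatives, 572 kept their direction and their side of the adjusted p threshold, 20 no longer passed, 5 newly passed and 3 changed sign. Median-ratio scaling changed the sign of Csf2ra with Tat (0.53), of Csf3r in ΔMye Tat against F/F Tat (-0.043) and of Csf2ra in ΔMye Tat against F/F PBS (0.16). It gave 4 members called higher with Tat in place of 2. In ΔMye Tat against F/F PBS it gave 3 in place of 2 called higher and 0 in place of 1 called lower. Without the fold threshold, 6 members were higher with Tat, 4 were higher and 2 lower in ΔMye Tat against F/F Tat, and 6 were higher and 2 lower in ΔMye Tat against F/F PBS. In the last comparison, 1834 of the 10451 tested genes were higher and 6143 lower by adjusted p. Of the values that no longer passed, all were of Csf2rb, Csf2rb2 or Csf3r in ΔMye Tat against F/F Tat. Quantile normalization left Csf2rb2 and Csf3r there at adjusted p of 0.0530 and 0.0899, and no filter left them at 0.0110 and 0.0120 (limma). Quantile normalization also passed Csf1 there (-0.24, adjusted p = 0.00325) and Csf2ra with Tat (-0.34, adjusted p = 1.10e-06). Whether Tat or IKKβ deletion changed the amount of RNA per cell was not measured, so neither scale can be taken as the true one. TPM hold no depth, and values of Csf2 and Csf3 near 1 TPM in F/F PBS are the least certain. No paired analysis was possible because the groups share no replicate numbers.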
